A study of Mus musculus with 12 samples.

Results

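Potassium channels were represented on the arrays by 95 of the 29608 gene names. Their members were taken by name, as every non-control probe whose gene symbol begins with Kcn, leaving out the choroid plexus genes *Kcnj13* and *Kcne2* and names ending in os, and they were read by 149 probes. Hippocampal RNA was profiled separately for 12 adult female mice of about 12 weeks, 4 of each of 3 phenotypes on the MRL background. MRL/lpr mice carry the lpr mutation of *Fas* and develop a lupus-like disease, Fn14ko mice are MRL/lpr mice that also lack *Tnfrsf12a*, the gene of the TWEAK receptor Fn14, and MRL/+ mice have neither change. MRL/lpr and Fn14ko mice were bred together and MRL/+ mice were bought from another source, and the removed part of *Tnfrsf12a* is not given in the sources used here. An array carried 2 mice of 1 phenotype, with odd replicate numbers labelled in Cy3 and even ones in Cy5. The slide and its scan cannot be told apart from phenotype, because the arrays of a phenotype shared a slide.

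Potassium channels let potassium leave the cell, which sets the resting potential of neurons, ends each action potential and limits repetitive firing. Voltage-gated channels are built from pore-forming subunits (Kcna to Kcnd, Kcnh, Kcnq), from silent subunits that only work together with them (Kcnf, Kcng, Kcns, Kcnv) and from auxiliary proteins (Kcnab, Kcne, and the calcium-binding Kcnip proteins). Inward rectifiers (Kcnj) and two-pore leak channels (Kcnk) hold the membrane near rest, and the Kcnn, Kcnm and Kcnt channels open with intracellular calcium or sodium.

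The second MRL/lpr array was weak. Median foreground over background was 1.93 and 1.73 in MRL/lpr replicates 3 and 4, compared with 12.6 and 4.53 in replicates 1 and 2 and 4.42 to 6.06 in the other 8 mice. Against mice on the other arrays, r across genes was 0.26 to 0.32 for replicate 4 and 0.44 to 0.49 for replicate 3. The counts of members in each comparison are therefore given in 2 sets, all 12 mice and the 10 mice outside this array. Subfamilies, marker lists and values within a dye are given for the 10 mice. In the 10-mouse set MRL/lpr is represented by 2 mice on 1 array, so an effect of that array cannot be told apart from the phenotype. In the Cy5 channels of MRL/+, the spots of negative controls had a median foreground of 208 and 211, compared with 33.2 to 90.6 in the other 10 channels, and only 29.6% and 31.8% of their spots were well above background, compared with 25.2% and 19.6% on the weak array and 51.5% to 68.1% in the other 8 channels. These 2 channels stayed in both sets. Of the 76 members of the 10-mouse set, 33 were well above background in neither of them, among them *Kcnab2*, *Kcnb2*, *Kcng1*, *Kcnh7*, *Kcnj3*, *Kcnj6*, *Kcnj12*, *Kcnk13* and *Kcnt2*, so for several dim genes the difference from MRL/+ is also given within each dye or without these channels.

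The knocked-out gene was checked first. *Tnfrsf12a* had no valid spot in all 12 mice. In the 10-mouse set its level, in units of the channel median, was 0.701, 0.634, 0.771 and 0.603 in Fn14ko, 1.66 and 1.16 in MRL/lpr and 1.09, 1.71, 1.98 and 1.56 in MRL/+. All 4 Fn14ko mice were below all 6 others, by 1.04 on the log2 scale against MRL/lpr (adjusted p = 0.0264) and 1.20 against MRL/+ (adjusted p = 0.00469). The signal was still well above background in the 4 Fn14ko mice, and a probe outside the removed part would not report the deletion. *Fas* was 0.145 and 0.106 in MRL/lpr, 0.165 to 0.233 in Fn14ko and 0.192 to 0.659 in MRL/+. It was not well above background in MRL/lpr replicate 2 or in the Cy5 mice of MRL/+, so these *Fas* levels are not exact.

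The tissue was checked with marker lists, since many potassium channels differ between brain regions and since the labels disagree. Source and tissue give hippocampus for all 12 samples, but the free text of at least some sample descriptions speaks of cortex. Marker genes are counted as higher or lower, here and below, when they passed an adjusted p of 0.05. Markers of hippocampal excitatory neurons were higher in the 2 MRL/lpr mice than in MRL/+ for 5 of 8 genes, and none passed as lower. None of the listed hippocampal markers was below the well-above-background call throughout these 2 mice. Markers of cortical neurons were lower for 6 of 7 genes and choroid plexus markers higher for 5 of 7. Over all genes 9.61% were lower and 6.11% higher in this comparison. The summed level of the cortical list was 6.76 and 7.59 in MRL/lpr, 16.8 to 26.4 in Fn14ko and 30.2 to 33.3 in MRL/+, and its brightest gene *Lamp5* was 1.81 and 2.16 in MRL/lpr and 6.31 to 16.6 in the other 8 mice. The summed level of the striatal list, led by *Penk*, was 15.9 and 14.3 in MRL/lpr, 36.3 to 104 in Fn14ko and 15.5 to 33.5 in MRL/+. The hippocampal list summed to 41.6 and 45.5 in MRL/lpr, 27.0 to 37.2 in Fn14ko and 22.5 to 26.8 in MRL/+, and the choroid plexus list, led by *Enpp2*, to 212 and 71.5, compared with 25.2 to 47.5 in the other 8 mice. The cortical list was lower in MRL/lpr, as most potassium channel members were in the 10-mouse results below. The hippocampal and choroid plexus lists were higher, and the striatal sum lay below Fn14ko but overlapped MRL/+. In whole tissue, fewer cells of a type and less RNA per cell cannot be told apart, and the part of region composition in the results was not tested.

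**Figure D1:**
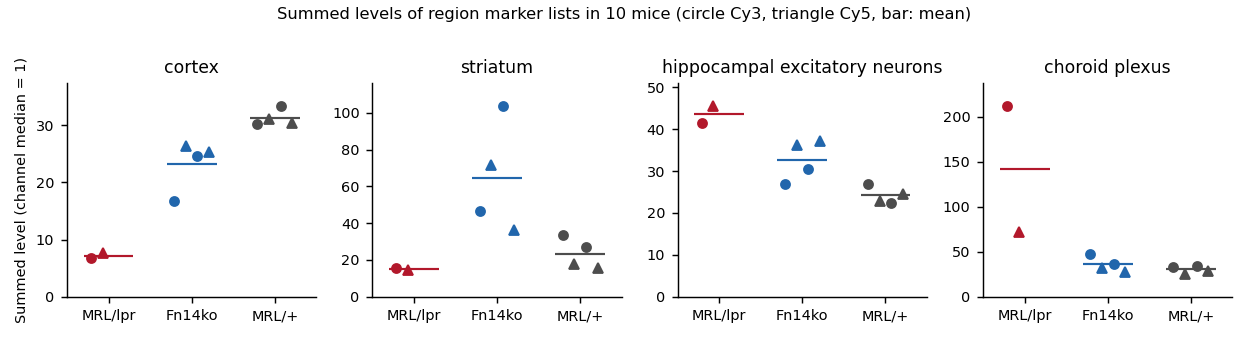
Summed levels (channel median = 1, linear axes from 0) of 4 marker lists in the 10 mice outside the weak array, by phenotype. Circles are Cy3, triangles Cy5 and bars the phenotype means. The cortical sum is 6.76 and 7.59 in the 2 MRL/lpr mice and at least 16.8 in every other mouse, while the hippocampal sum is highest in MRL/lpr.

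The members were measured to different extents. In the 12-mouse set, which needs a spot at least 2 times background in every mouse, 35 of the 95 members were quantified, and in the 10-mouse set 76 were. The 40 voltage-gated pore and silent subunits gave 20 and 34 genes in the 2 sets, the 7 Kcnab and Kcne genes 1 and 6, the 4 Kcnip genes 3 and 4, the 14 Kcnj genes 5 and 11, the 14 Kcnk genes 2 and 10, the 12 Kcnn, Kcnm, Kcnt and Kcnu genes 3 and 8, and the 4 other names, of which 3 are noncoding, 1 and 3. Of the 19 members quantified in neither set, 7 were not well above background in any mouse, among them *Kcna10*, *Kcnj1*, *Kcnk18* and *Kcnv2*. No gene's level is set against that of another gene, because probes differ in brightness.

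The probes of the genes on which the results turn are shown by their first 30 of 60 bases, 5′ to 3′, with the whole probe's mm9 position, so that the measured transcript can be traced. The first 5 genes were among those with the largest differences in the 10-mouse set, and the other 3 passed in both sets between MRL/lpr and MRL/+.

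Kcns1, chr2:163990130-163990189, minus strand: ctgagccgtcagacataggggccacagatc
Kcnab3, chr11:69146197-69146256, plus strand: gaagacttaaatctagaactagagtcacac
Kcnh5, chr12:75998266-75998325, minus strand: gccaaagacaattattcaaaacatagatat
Kcnk4, probe 1, chr19:7007194-7007253, minus strand: agaccagtttctgagggaccatccctgtgt
Kcnk4, probe 2, chr19:7000280-7000339, minus strand: ggttgccaaatgccaccgctcttccctggc
Kcnf1, probe 1, chr12:17179527-17179586, minus strand: atactcagagatccaaagtatctttttgct
Kcnf1, probe 2, chr12:17181507-17181566, minus strand: ttcattcccctgctgacagaggagaagcat
Kcnj4, probe 1, chr15:79314144-79314168, minus strand: gcatgactgtggtctgtgctcttgattctc
Kcnip3, probe 1, chr2:127282242-127282301, minus strand: tggttcctgtctcagcgcccaccaatattc
Kcnab1, chr3:65181718-65181777, plus strand: ggggtttttgttgttgttttgttttctgta

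The *Kcnj4* position covers fewer bases than the probe has, as the files list it. The other probe of *Kcnj4* and of *Kcnip3* was valid only in the 10-mouse set. In the 10-mouse set the 2 probes of *Kcnk4* gave log2 fold changes of -1.83 and -1.99 between MRL/lpr and MRL/+, and those of *Kcnf1* gave -1.43 and -1.96. With all 12 mice, where it alone was valid, probe 2 of *Kcnf1* gave 1.13, through the weak array.

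MRL/lpr was first compared with MRL/+, which asks how the lupus-prone hippocampus differs from that of the background strain. With all 12 mice, 9 of the 35 quantified members passed an adjusted p of 0.05, 7 lower and 2 higher in MRL/lpr. Over all genes, 9.17% passed in this comparison, 5.71% lower and 3.46% higher. With 1 mouse left out, 1 to 15 members passed, and 1 did without MRL/+ replicate 2, 3 or 4. The median log2 fold change was -0.21 over the 35 members and -0.01 over all 8864 genes. Those that fell included *Kcnc4* among the voltage-gated pores, *Kcnip3* and *Kcnip4* among the calcium-binding subunits, *Kcnj4*, *Kcnk1* and *Kcnma1*, and those that rose were *Kcnab1* and *Kcnn2*. Groups did not overlap for 11 members, compared with 16.1% of all genes. Of these, 9 were lower and 2 higher in MRL/lpr, compared with 11.6% and 4.58% of all genes. In all, 20 of the 35 had a log2 fold change below 0, compared with 50.4% of all genes.

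*Kcnj4*, a strong inward rectifier of forebrain neurons, was 2.41, 2.67, 1.27 and 1.17 in MRL/lpr, 1.82, 5.11, 5.00 and 6.14 in Fn14ko and 4.62, 9.25, 5.46 and 8.72 in MRL/+. MRL/lpr and MRL/+ did not overlap, and Fn14ko replicate 1 lay among the MRL/lpr mice. The gene fell by 1.93 ± 0.39 (SE) on the log2 scale against MRL/+ (4 mice against 4, limma adjusted p = 0.0168, exact two-sided permutation p = 0.0286, the smallest that this design allows), and by 1.23 ± 0.31 in the 10-mouse set (adjusted p = 0.0256).

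*Kcnip3* encodes a calcium-binding partner of the A-type Kcnd channels. Its level was 3.42, 4.33, 1.20 and 0.859 in MRL/lpr, 5.66, 7.88, 6.48 and 8.77 in Fn14ko and 6.30, 7.11, 5.80 and 7.52 in MRL/+. MRL/lpr was below both other phenotypes without overlap, and the 2 mice of the weak array were lowest. It fell by 1.75 ± 0.45 against MRL/+ (adjusted p = 0.0381). With 1 mouse left out it passed in 2 of 12 fits, with log2 fold changes of -2.13 to -1.26. Without the weak array, on the same genes, it fell by 0.79 (adjusted p = 0.00617). Its relative *Kcnip4* was 1.50, 1.39, 0.309 and 0.537 in MRL/lpr and 1.87 to 2.93 in MRL/+, a fall by 1.57 (adjusted p = 0.0441). The fall was 0.66 without the weak array on the same genes (adjusted p = 0.031) and 0.45 with the probes of the 10-mouse set (adjusted p = 0.0959). In the 12-mouse set with 1 mouse left out, *Kcnip4* also passed in 2 of 12 fits, with log2 fold changes of -2.01 to -1.15.

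The 2 members that rose were an auxiliary subunit of the Kcna channels and a small-conductance calcium-activated channel. *Kcnab1* was 1.54, 1.28, 2.50 and 2.16 in MRL/lpr, 0.740, 0.952, 0.739 and 0.654 in Fn14ko and 0.561, 0.979, 0.758 and 0.977 in MRL/+. Every MRL/lpr mouse was above every other mouse. It rose by 1.18 ± 0.28 against MRL/+ (adjusted p = 0.0293) and by 0.97 ± 0.21 in the 10-mouse set (adjusted p = 0.0114). In the 12-mouse set with 1 mouse left out, *Kcnab1* passed in 6 of 12 fits. *Kcnn2* was 1.46, 1.25, 1.73 and 0.954 in MRL/lpr, 1.46, 0.904, 0.842 and 0.760 in Fn14ko and 0.84, 0.712, 0.679 and 0.678 in MRL/+. MRL/lpr and MRL/+ did not overlap, and Fn14ko replicate 1 lay among the MRL/lpr mice. Against MRL/+ the gene rose by 0.87 ± 0.23 (adjusted p = 0.0415), and by 1.02 ± 0.22 in the 10-mouse set (adjusted p = 0.0131). In the 12-mouse set it passed in 5 of 12 fits with 1 mouse left out. With replicate number as a block it did not pass there (adjusted p = 0.0589).

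Further members among the 8 largest were *Kcnk1*, a two-pore leak channel, which fell by 1.28 (adjusted p = 0.0205), and *Kcnc4*, a fast A-type pore subunit, which fell by 1.17 (adjusted p = 0.0244). *Kcnk1* was 0.831, 0.741, 0.429 and 0.612 in MRL/lpr and 1.29 to 2.01 in MRL/+. Without the weak array both were smaller. On the same genes *Kcnk1* fell by 0.97 (adjusted p = 0.0242) and *Kcnc4* by 0.71 (adjusted p = 0.0141), and in the 10-mouse set, which scales the same spots to another median, their log2 fold changes were -0.81 and -0.54 and did not pass (adjusted p = 0.0656 and 0.0549). *Kcnma1*, the pore of the large-conductance calcium-activated channel, had the smallest change of the 9 and was named after its values were seen. It fell by 0.82 (adjusted p = 0.0384), but its 4 probes disagreed, with log2 fold changes of 1.65, -0.50, -0.74 and -1.35, and in the 10-mouse set it had an adjusted p of 0.0892.

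**Figure D2:**
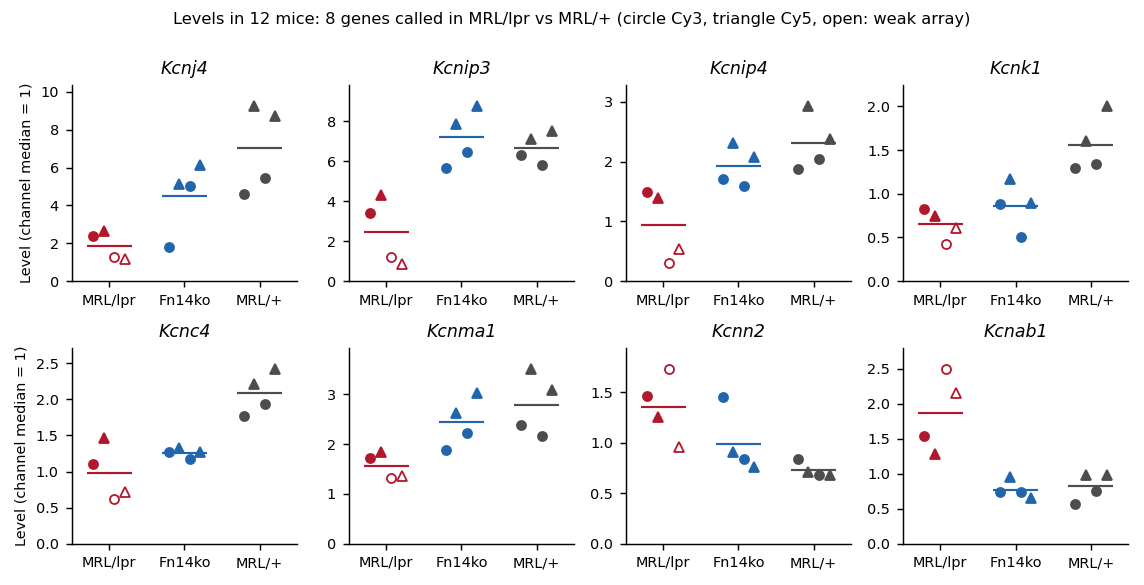
Levels (channel median = 1, linear axes from 0) of 8 members past the threshold between MRL/lpr and MRL/+ in all 12 mice. Circles are Cy3, triangles Cy5, open symbols the weak array and bars the phenotype means. *Kcnj4* is 1.17 to 2.67 in the MRL/lpr mice and 4.62 to 9.25 in MRL/+, and *Kcnip3* is lowest on the weak array.

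These 12-mouse calls rest on mice as separate samples. With array as a random block, at a fitted correlation of 0.71, no member passed in any of the 3 comparisons. Over all genes, 0.079% passed between MRL/lpr and MRL/+ (*Kcnj4* adjusted p = 0.261), 0.0451% between MRL/lpr and Fn14ko and 0% in the remaining comparison. With the weak array left out and the same 8864 genes, 17 of the 35 members passed, compared with 18.1% of all genes. With the signal of negative controls as background the share of members was close to that of all genes, at 28.6% (10 of 35) and 27%.

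The same comparison without the weak array covered more members. Of 76 quantified members, 24 were lower and 2 higher in MRL/lpr than in MRL/+, compared with 9.61% lower and 6.11% higher over all genes and 15.7% in either direction. In all, 64 of the 76 had a log2 fold change below 0, compared with 56.9% of all genes, and the median was -0.65 over the members and -0.10 over all 17936 genes. The direction was the same within each dye. In Cy3 58 of 76 members were below 0, compared with 48.3% of all genes, and in Cy5 62 were, compared with 61%. Each dye holds 1 MRL/lpr mouse and these mice share an array, so the dyes are not separate replication. In Cy5, 33 of the members were well above background in neither MRL/+ mouse. Groups did not overlap for 47 members, compared with 34% of all genes. Of these, 43 were lower and 4 higher in MRL/lpr, compared with 20% and 13.9% of all genes. With no filter on dim spots 33 of 95 members passed, the same 34.7% as of all genes, and with the signal of negative controls as background 18 of 76 (23.7%) passed, compared with 11.7%. With array as a random block 41 members passed, compared with 28.6% of all genes. Its fitted correlation was -0.26, and a negative value narrows the standard errors between phenotypes. MRL/lpr is 1 array in this set, so the block cannot measure array variation for it. At an unadjusted p under 0.05, 45 members passed, compared with 33.6%. Fewer passed with replicate number as a block, at 14 (7.04% of all genes), and with no dye term, at 15 (8.54%). More members were lower than higher under each of the 6 ways of scaling or background correction that were tried. The cortical marker list fell in the same 2 mice, and its part in these counts was not tested.

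By subfamily, 11 of 34 voltage-gated pore and silent subunits were lower and none higher, with a median log2 fold change of -0.63. Of the 10 two-pore Kcnk channels, 5 were lower, with a median of -0.86. Of the 11 Kcnj channels, 2 were lower, *Kcnj12* and *Kcnj4*. Of the 4 Kcnip genes, 2 were lower. Of the 6 Kcnab and Kcne genes, *Kcnab3* and *Kcnab2* were lower and *Kcnab1* was higher. Of the 8 Kcnn, Kcnm, Kcnt and Kcnu genes, *Kcnt1* was lower and *Kcnn2* higher, and among the other names *Kcnmb4os2* was lower.

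*Kcns1* had the largest difference. It encodes a silent subunit that alters other voltage-gated channels, and its level was 0.206 and 0.211 in MRL/lpr, 0.586, 0.817, 1.14 and 0.827 in Fn14ko and 1.41, 0.952, 1.74 and 1.11 in MRL/+. Both MRL/lpr mice were below all 8 others. It fell by 2.60 ± 0.28 on the log2 scale against MRL/+ (limma adjusted p = 0.000273), by 2.92 in Cy3 and by 2.29 in Cy5. The exact permutation test of 2 mice against 4 cannot go below 0.0667, which this gene reached.

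*Kcnab3*, another auxiliary subunit of the Kcna channels, was 1.31 and 1.50 in MRL/lpr, 4.23, 5.54, 9.86 and 5.98 in Fn14ko and 8.52, 7.56, 7.23 and 7.17 in MRL/+. It fell by 2.44 ± 0.28 against MRL/+ (adjusted p = 0.000376), opposite to its relative *Kcnab1*. The mechanically gated two-pore channel *Kcnk4* was 0.429 and 0.469 in MRL/lpr, 1.03 to 1.32 in Fn14ko and 1.39 to 2.18 in MRL/+, a fall by 1.98 ± 0.20 (adjusted p = 0.000213). For both genes the 2 MRL/lpr mice were below all others, and Fn14ko overlapped MRL/+ for *Kcnab3* but not for *Kcnk4*.

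The Kcnh family of ether-a-go-go channels gave further falls. *Kcnh5* was 0.2 and 0.239 in MRL/lpr, 0.44, 0.985, 0.71 and 0.811 in Fn14ko and 0.93, 1.44, 1.01 and 1.25 in MRL/+. It fell by 2.38 ± 0.22 (adjusted p = 0.000126). *Kcnh7* was 0.0561 and 0.0762 in MRL/lpr, where neither mouse was well above background, and 0.227 to 0.379 in MRL/+, where the 2 Cy3 mice were. It passed in this set (adjusted p = 0.00164), but no fold is given, since the dim mice of both phenotypes have only a bound, and it did not pass with the signal of negative controls as background (adjusted p = 0.661). The MRL/lpr mice of the weak array, outside this set, were well above background for *Kcnh7* and highest of all 12 without the filter on dim spots, at 6.76 and 4.86, compared with 0.191 to 0.911 in the other 10.

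*Kcna3* and *Kcnk13*, 2 channels also known from microglia, had values in Fn14ko that overlapped those in MRL/lpr and lay below MRL/+. *Kcna3* was 0.24 and 0.317 in MRL/lpr, 0.435, 0.436, 0.181 and 0.342 in Fn14ko and 0.768, 1.06, 0.693 and 0.912 in MRL/+. *Kcnk13* was 0.169 and 0.222 in MRL/lpr, 0.178 to 0.322 in Fn14ko and 0.469 to 0.689 in MRL/+. Against MRL/+, *Kcna3* fell by 1.62 (adjusted p = 0.00632). The fitted fall of *Kcnk13* was 1.59 (adjusted p = 0.00155), 1.55 in Cy3 and 1.62 in Cy5. With the signal of negative controls as background *Kcnk13*, dim in the Cy5 mice of MRL/+, turned to 0.10 (adjusted p = 0.954), and *Kcna3* did not pass (adjusted p = 0.0622). Of 8 microglial markers, 1 was lower and none higher in this comparison, and their summed level was 28.4 and 36.8 in MRL/lpr, 33.8 to 39.6 in Fn14ko and 38.0 to 44.0 in MRL/+. *Kcnab2* had levels of 0.15 and 0.18 in MRL/lpr. In MRL/+ the Cy3 mice were at 0.278 and 0.279 and the Cy5 mice at 0.776 and 0.797, and these higher values were not well above background. Its fitted fall was 1.51 (adjusted p = 0.0101), 0.89 in Cy3 and 2.13 in Cy5. It was 1.05 without the Cy5 channels of MRL/+ (adjusted p = 0.0221), and with the signal of negative controls as background *Kcnab2* did not pass (adjusted p = 0.16).

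**Figure D3:**
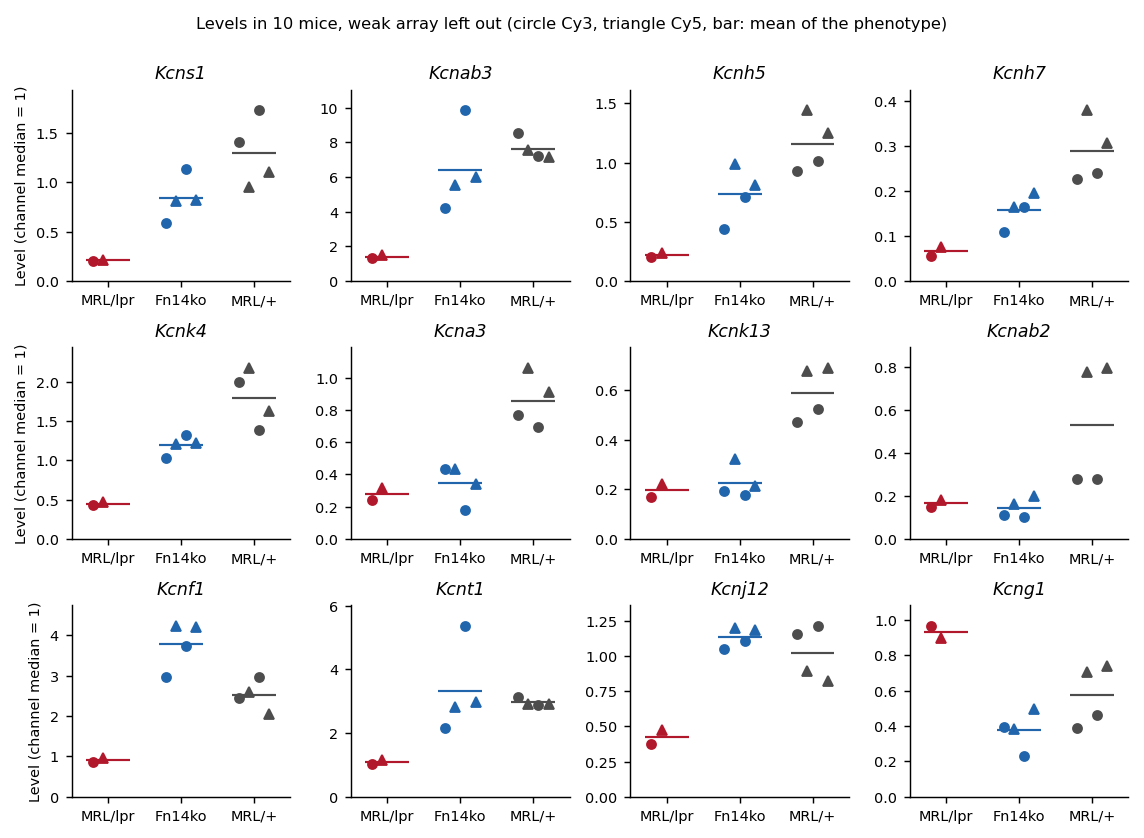
Levels (channel median = 1, linear axes from 0) of 12 members with the largest differences of MRL/lpr in the 10-mouse set. Circles are Cy3, triangles Cy5 and bars the phenotype means. *Kcns1*, *Kcnab3*, *Kcnh5* and *Kcnk4* are lowest in the 2 MRL/lpr mice, *Kcna3* and *Kcnk13* lie below MRL/+ in both other phenotypes, and *Kcng1* is highest in MRL/lpr.

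MRL/lpr was then compared with Fn14ko, which asks what the loss of Fn14 changes on the lupus-prone background. It uses the same MRL/lpr mice as the comparison above. With 12 mice 2 of 35 members passed, compared with 3.98% of all genes. *Kcnip3* fell by 1.84 ± 0.45 (adjusted p = 0.0454), and in the 10-mouse set, where it also passed, its 2 probes gave -0.97 and 0.14. *Kcnab1* rose by 1.24 ± 0.28 (adjusted p = 0.0347), but without the filter on dim spots its log2 fold change was -0.22 (adjusted p = 0.746). With 1 mouse left out *Kcnip3* passed in 2 of 12 fits and *Kcnab1* in 3. With replicate number as a block neither passed (adjusted p = 0.0566 and 0.0558). The background was 1.77% of all genes lower and 2.21% higher. Groups did not overlap for 11 of the 35, compared with 21.5% of all genes, with 7 lower and 4 higher in MRL/lpr against 10.3% and 11.2%. A log2 fold change below 0 was found for 19 of the 35 and 48.7% of all genes, and the median was -0.07 over the members and 0.03 over all genes.

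Without the weak array 13 members were lower and 3 higher in MRL/lpr than in Fn14ko, compared with 5.03% and 4.09% of all genes and 9.12% in either direction. The median was -0.28 over the members and -0.04 over all genes. The 13 were 6 voltage-gated subunits, 3 Kcnk channels, and *Kcnab3*, *Kcnip3*, *Kcnj12* and *Kcnt1*. The 3 that were higher were *Kcng1*, *Kcnab1* and *Kcnj3*. Groups did not overlap for 35 members, compared with 37% of all genes, 29 of them lower and 6 higher in MRL/lpr against 20.9% and 16.1%. Below 0 were 52 of the 76 and 53.5% of all genes, and 31 passed at an unadjusted p under 0.05, compared with 23.3%. With array as a random block, at a fitted correlation of -0.26, 25 passed, compared with 15.9%. This block again cannot measure array variation for MRL/lpr. With replicate number as a block 10 passed (3.45% of all genes), and with no dye term 10 (4.46%). With the signal of negative controls as background 5 passed (2.04%). The striatal list, 4 of whose 7 genes were lower, and the cortical list, with 4 of 7 lower and 1 higher, moved with this comparison, and their part was not tested.

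*Kcnf1*, a silent subunit, was 0.852 and 0.947 in MRL/lpr, 2.97, 4.23, 3.74 and 4.21 in Fn14ko and 2.45, 2.59, 2.96 and 2.04 in MRL/+. The 2 MRL/lpr mice were apart from all others. It fell by 2.06 ± 0.20 against Fn14ko (adjusted p = 0.000303), *Kcnab3* by 2.12 (adjusted p = 0.00137), *Kcns1* by 1.97 (adjusted p = 0.0021), *Kcnh5* by 1.69 (adjusted p = 0.00142) and *Kcnk4* by 1.41 (adjusted p = 0.00247). The latter pair did not pass with the signal of negative controls as background (adjusted p = 0.0698 and 0.133).

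The sodium-activated channel *Kcnt1* was 1.04 and 1.14 in MRL/lpr, 2.15, 2.82, 5.36 and 2.98 in Fn14ko and 2.89 to 3.14 in MRL/+, a fall by 1.52 against Fn14ko (adjusted p = 0.0099). The inward rectifier *Kcnj12* was 0.371 and 0.476 in MRL/lpr, 1.05 to 1.20 in Fn14ko and 0.82 to 1.21 in MRL/+, a fall by 1.43 (adjusted p = 0.00252). *Kcng1*, a silent subunit, went the other way, at 0.966 and 0.897 in MRL/lpr, 0.395, 0.38, 0.231 and 0.496 in Fn14ko and 0.386 to 0.738 in MRL/+. It was higher by 1.36 ± 0.27 (adjusted p = 0.0121), so silent subunits did not move in 1 direction. *Kcnt1*, *Kcnj12* and *Kcng1* kept their signs but did not pass with the signal of negative controls as background (adjusted p = 0.0972, 0.123 and 0.879). In the class of other names no member passed, and *Kcnmb4os2*, the only one quantified in 12 mice, had a log2 fold change of 2.09 there (adjusted p = 0.166). *Kcnmb4os2* was 5.06 and 9.26 in the mice of the weak array and 0.170 and 0.241 in the other MRL/lpr mice, and without that array its log2 fold change was -0.45 on the same genes and -0.54 in the 10-mouse set.

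Fn14ko was compared with MRL/+ last, and this comparison does not involve the weak array other than through the choice of spots, the scale and the shared estimate of the spread. With 12 mice no member passed in the limma test, compared with 0.519% of all genes, 0.474% lower and 0.0451% higher. At an unadjusted p under 0.05, 7 of 35 members and 15.3% of all genes passed, and the methods' t-test gave 4 members and 16.8% of all genes at that threshold. Groups did not overlap for 6 members, all lower in Fn14ko, compared with 19.9% of all genes, 14.1% lower and 5.88% higher. Below 0 were 28 of the 35 and 63.1% of all genes. The median was -0.37 over the members and -0.16 over all genes.

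Without the weak array 18 members were lower and 4 higher in Fn14ko, compared with 11.1% and 10% of all genes and 21.1% in either direction. With the 75th percentile in place of the median as the scale the split was 24 lower and 1 higher, and 71.7% of the calls over all genes were lower, compared with 52.4% by the median. With the signal of negative controls as background it was 3 lower and none higher, while 4.21% of all genes passed. With both Cy5 channels of MRL/+ left out 7 members and 3.98% of all genes passed. With replicate number as a block 12 members passed, compared with 10.7% of all genes. Groups did not overlap for 17 of the 76 members, compared with 18.5% of all genes, 15 of them lower and 2 higher in Fn14ko against 9.1% and 9.39%. Below 0 were 55 of the 76 and 55.1% of all genes, and 31 passed at an unadjusted p under 0.05, compared with 38.3%. With array as a random block 31 passed, compared with 35.7%, at a fitted correlation of -0.26, which narrows the standard errors. The median was -0.38 over the members and -0.07 over all genes. By subfamily 10 voltage-gated subunits were lower and 3 higher (*Kcnh3*, *Kcna4* and *Kcnf1*, whose 2 probes gave -0.22 and 0.65), 3 Kcnk and 2 Kcnj channels, *Kcnab2* and *Kcnip2* were lower, and of the calcium- and sodium-activated channels *Kcnt2* was lower and *Kcnn2* higher.

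*Kcnj3* and *Kcnj6*, subunits of the G protein-gated inward rectifier through which GABAB receptors hyperpolarize neurons, were both lower. *Kcnj3* was 0.361 and 0.392 in MRL/lpr, 0.184, 0.251, 0.218 and 0.227 in Fn14ko and 0.469, 0.558, 0.475 and 0.505 in MRL/+. Fn14ko was below both other phenotypes without overlap. The fitted fall of *Kcnj3* against MRL/+ was 1.20 ± 0.16 (adjusted p = 0.00187), 1.24 in Cy3 and 1.15 in Cy5. The Cy5 mice of MRL/+ were not well above background for it, so the fitted and Cy5 values are not exact. The fall was 0.72 and did not pass with the signal of negative controls as background (adjusted p = 0.299). Its 2 probes disagreed in size, at -0.19 and -1.77.

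*Kcnj6* was 0.0902, 0.117, 0.0871 and 0.113 in Fn14ko, and 0.229 and 0.219 in the Cy3 and 0.421 and 0.427 in the Cy5 mice of MRL/+. The Cy5 mice of MRL/+ and Fn14ko replicate 4 were not well above background. The fitted fall was 1.61 ± 0.25 (adjusted p = 0.00322), 1.33 in Cy3 and 1.88 in Cy5, and 1.27 without the Cy5 channels of MRL/+ (adjusted p = 0.02). With the signal of negative controls as background it gave 0.16 (adjusted p = 0.886), so this call depends on the background that is subtracted.

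*Kcnab2*, at 0.103 to 0.202 in Fn14ko and not well above background in the Cy5 mice of MRL/+, had a fitted fall of 1.75 ± 0.25 (adjusted p = 0.00246), 1.37 in Cy3 and 2.12 in Cy5. Without the Cy5 channels of MRL/+ it was 1.29 (adjusted p = 0.0246). *Kcnk13*, also not well above background in the Cy5 mice of MRL/+, had a fitted fall of 1.40 (adjusted p = 0.00169). It was 1.41 in Cy3 and 1.39 in Cy5, and the Cy5 value is not exact. *Kcna3* fell by 1.36 (adjusted p = 0.00659) and *Kcnip2* by 1.02 (adjusted p = 0.029). With the signal of negative controls as background *Kcnk13* turned in sign, to 0.11 (adjusted p = 0.941), and *Kcnab2*, *Kcna3* and *Kcnip2* did not pass (adjusted p = 0.0682, 0.0696 and 0.0786). None of the 8 microglial markers passed. *Kcnh3* was higher by 1.29 ± 0.40 (adjusted p = 0.0454), at 19.0, 18.1, 35.3 and 26.1 in Fn14ko and 22.1, 4.12, 20.4 and 4.73 in MRL/+, where the low values are the Cy5 mice. Its difference was 0.29 in Cy3 and 2.30 in Cy5, so it rests on the Cy5 channels, and with replicate number as a block it was not past the threshold (adjusted p = 0.0807). Among the other names, *Kcnmb4os2* had a log2 fold change of -0.37 with 12 mice (adjusted p = 0.921).

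**Figure D4:**
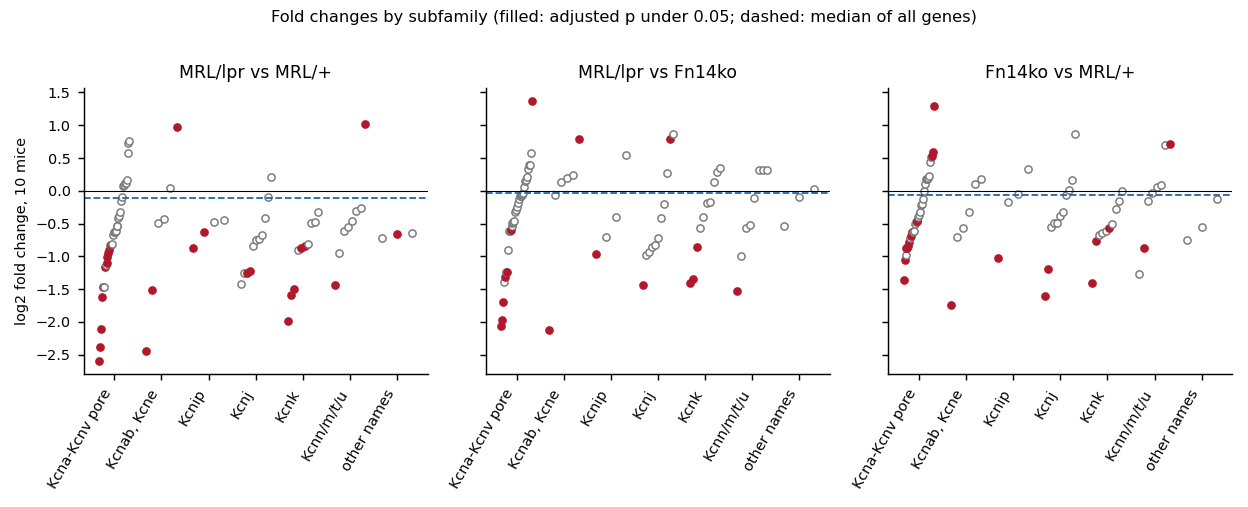
Log2 fold changes of the 76 members quantified in 10 mice, by subfamily and comparison; points within a subfamily are sorted. Filled points passed an adjusted p of 0.05 and the dashed line is the median of all 17936 genes, -0.10, -0.04 and -0.07 in the 3 panels. Most filled points lie below 0, with *Kcnab1*, *Kcnn2*, *Kcng1* and *Kcnh3* among those above it.

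Some members stood far apart on the weak array. Signs of small differences are not compared between the 2 sets, because each is scaled to its own median, which alone moves every spot's difference between Fn14ko and MRL/+, the same 8 mice, by 0.25 on the log2 scale. *Kcnf1* was 0.0235 and 0.0329 in MRL/lpr replicates 1 and 2 and 2.19 and 2.90 in replicates 3 and 4, on the scale of the 12-mouse set, compared with 0.0711 to 0.187 in the other 8 mice. *Kcnj3* was 0.0963 and 0.102 in replicates 1 and 2 and 2.07 and 2.96 in replicates 3 and 4, and the delayed rectifier *Kcnb2* was 0.0213, 0.0255, 1.42 and 1.46. For these 3 genes, the latter named after its values were seen, the 2 mice of the weak array were far above all other mice and the other MRL/lpr mice were not. Their 12-mouse differences from MRL/+ did not pass the threshold, with adjusted p of 0.561 for *Kcnf1*, 0.0944 for *Kcnj3* and 0.497 for *Kcnb2*. *Kcnab1*, *Kcnip3*, *Kcnj4* and *Kcnn2* were among those past the threshold in both sets for MRL/lpr against MRL/+, and *Kcnab1* and *Kcnip3* were against Fn14ko.

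**Figure D5:**
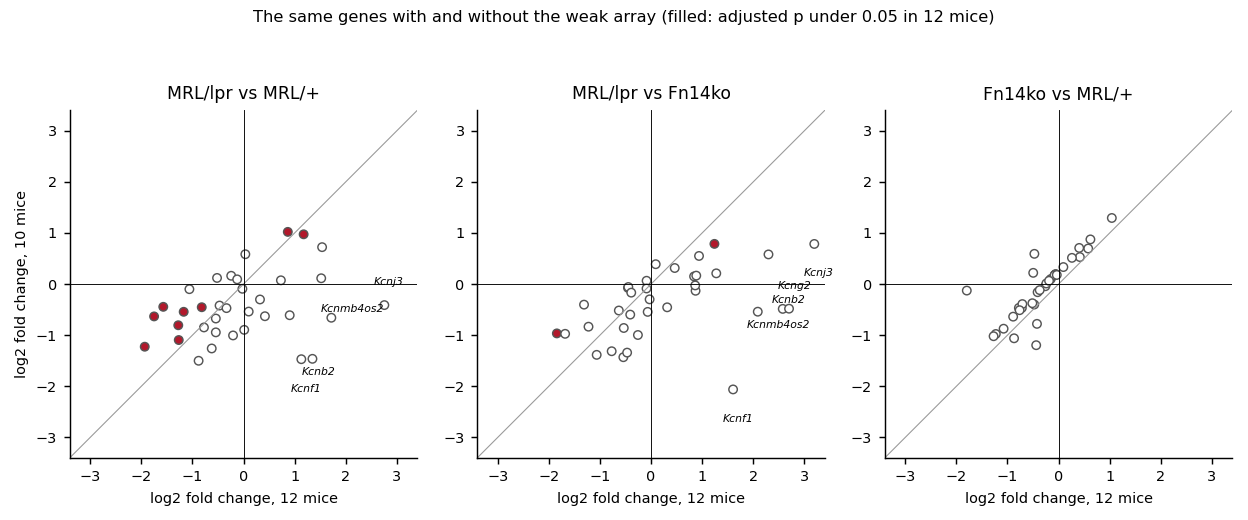
Log2 fold changes of the 35 members in both sets, with all 12 mice (horizontal) and with the 10 mice outside the weak array (vertical), for the 3 comparisons. Filled points passed the threshold with 12 mice, the diagonal marks equal values, and genes more than 2 log2 units apart are named. *Kcnf1*, *Kcnj3*, *Kcnb2* and *Kcnmb4os2* lie far to the right of the diagonal in comparisons with MRL/lpr.

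Several major channels of hippocampal neurons and glia were followed by their levels in the 10-mouse set. *Kcna1*, a low-threshold axonal channel, was 8.03 and 7.72 in MRL/lpr, 6.58 to 9.10 in Fn14ko and 3.65 to 9.43 in MRL/+, so the phenotypes overlapped. *Kcna2*, its usual partner, was 1.04 and 1.01 in MRL/lpr, 1.01 to 2.01 in Fn14ko and 2.12 to 2.53 in MRL/+, where all 4 mice were above the other 6. *Kcnd2*, the A-type channel of dendrites, was 8.01 and 7.99 in MRL/lpr, 4.61 to 7.77 in Fn14ko and 4.16 to 5.98 in MRL/+. Both MRL/lpr mice were above all others for *Kcnd2*, but the difference from MRL/+ did not pass (log2 fold change 0.58, adjusted p = 0.107).

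*Kcnj10*, the astrocytic inward rectifier that clears potassium, was 10.5 and 18.8 in MRL/lpr, 22.3 to 36.5 in Fn14ko and 8.90 to 23.9 in MRL/+. *Kcnma1* was 6.52 and 6.91 in MRL/lpr, 7.44 or more in Fn14ko and 8.49 to 9.58 in MRL/+. MRL/lpr was below Fn14ko without overlap for *Kcnj10* and *Kcnma1*, as it was for 20.9% of all genes. Neither gene passed the threshold against Fn14ko in this set.

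The 36 genes of partner proteins and related potassium transport were counted in the same fits. Of these, 33 were quantified in 10 mice, and 6 were lower and 2 higher in MRL/lpr than in MRL/+, 3 lower and none higher in MRL/lpr than in Fn14ko, and 7 lower and 1 higher in Fn14ko than in MRL/+. Over all genes 15.7%, 9.12% and 21.1% passed in these comparisons. Their medians were -0.40, -0.04 and -0.17. *Dpp10*, the transmembrane partner of Kcnd channels, was 1.13 and 1.82 in MRL/lpr, 4.53 to 7.51 in Fn14ko and 4.24 to 6.11 in MRL/+. It fell by 1.85 against MRL/+ (adjusted p = 0.00141) and by 2.08 against Fn14ko (adjusted p = 0.00119). *Hcn2*, a cation channel opened by hyperpolarization, was 23.1 and 30.7 in MRL/lpr, 24.2 to 32.1 in Fn14ko and 53.1, 67.3, 56.1 and 78.6 in MRL/+.

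MRL/+ was thus above both other phenotypes for *Hcn2*. It fell by 1.24 in MRL/lpr (adjusted p = 0.00141) and by 1.19 in Fn14ko (adjusted p = 0.00112), and also passed with 12 mice, by 1.43 (adjusted p = 0.00869) and 1.44 (adjusted p = 0.0359, and 0.0864 with replicate number as a block). With array as a random block *Hcn2* did not pass with 12 mice (adjusted p = 0.292 and 0.998). The scaffold *Dlg1*, which clusters Kcna channels, fell by 1.10 in MRL/lpr (adjusted p = 0.00199) and by 0.79 in Fn14ko (adjusted p = 0.00516) against MRL/+. With 12 mice 4 of the 24 quantified partners were lower and none higher in MRL/lpr than in MRL/+. Over all genes 9.17% passed, 5.71% lower and 3.46% higher. Among the 4 were *Dlg2*, which fell by 1.53 (adjusted p = 0.0072), and *Adam22*, which fell by 1.11 (adjusted p = 0.0291). These calls of *Dlg2* and *Adam22* were also lost with array as a random block (adjusted p = 0.199 and 0.294). Against Fn14ko, the BK channel subunit *Lrrc55* fell by 1.16 (adjusted p = 0.00513) in MRL/lpr. *Hcn3* fell by 1.09 in Fn14ko against MRL/+ (adjusted p = 0.00605).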

How the data were processed

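RNA of each hippocampus was reverse transcribed with Cy3 or Cy5 dUTP and hybridized to Agilent 60-mer arrays. The authors extracted the scans with Agilent Feature Extraction 12.1, and the deposited files hold a linear intensity per spot and dye, not normalized between channels. Following the study's methods, the local background was subtracted, spots under 2 times background or flagged as outliers in any mouse were dropped, every channel was scaled to a median of 1, and each gene's probes were averaged. This left 10877 spots (8864 genes) in 12 mice and 25621 spots (17936 genes) in 10. No spot was saturated. The number of arrays and the signal over background limit the precision.

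Log2 values were fitted with limma 3.58.1 in R 4.3.3 (phenotype and dye, eBayes with trend), with Benjamini-Hochberg adjustment over all genes, a threshold of 0.05, and the array as a random block through statmod 1.5.0. In seeded simulated data with large known changes the fit recovered them. Those data had independent mice, a capped spread and no array effect, so they do not test the calls made here. The mice are separate animals, but 2 share each array. Replicate numbers were checked for pairing by the deviations of same-numbered mice from their phenotype means in 12 mice. In Fn14ko and MRL/+ these correlated at 0.20 to 0.50 in all 4 pairs, so the block is given beside that comparison. This pairing comes from the data, and odd and even numbers also carry the dye. Exact two-sided permutation tests cannot go below 0.0286 for 4 against 4 mice and 0.0667 for 2 against 4. Python 3.11.15, pandas 2.3.3 and matplotlib 3.10.9 served for reading and figures. Gene symbols are those of the array design, and all 95 are in RefSeq's GRCm38.p6 table. Probe positions are mm9.

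Members, gene lists and the rule for named genes were chosen with earlier results of these data known. Named are, per comparison and set, up to 8 members past the threshold with the largest change, the member of smallest p in a subfamily with none, up to 3 partner genes, *Tnfrsf12a*, *Fas*, and some major channels by level. A few genes are not reported here by name, but stay in all counts. Marker lists had 9 genes for hippocampal excitatory neurons, 8 each for pan-neuronal, interneuron, astrocyte, oligodendrocyte, microglia, choroid plexus and striatum, 7 for endothelium and cortex, 5 for thalamus and 4 for erythroid cells. Alternatives covered the filter, background, scaling, probe choice, dye, array and replicate terms, variance model, samples left out and the methods' t-test and composite criterion.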

Additional observations from a re-analysis of the deposited data

Results flagged for a closer look

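In 61 groups of 4 mice, the lowest or highest level was compared with the others by Dixon's ratio, the gap to its neighbour over the whole range; chance alone would mark about 1 in 20. Marked were 2. *Kcnf1* in MRL/+ had a ratio of 0.93, with replicate 2 at 0.187 and the others at 0.101 to 0.107. *Kcnt1* in MRL/+ had a ratio of 0.869, with replicate 1 at 3.14 and the others at 2.89 to 2.92.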

How the results depend on the processing

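Counts of members past the threshold moved with the processing, and so did the shares of all genes past it, given in parentheses. With all 12 mice the counts were 9, 2 and 0 (9.17%, 3.98% and 0.519%) for MRL/lpr against MRL/+, MRL/lpr against Fn14ko and Fn14ko against MRL/+. With array as a random block, with the Cy3 channels only and with the Cy5 channels only, the first and second counts were 0 (0.079% and 0.0451%, 0% and 0%, 0% and 0%); they were also 0 with both MRL/+ Cy5 channels left out (0.135% and 1.17%, chosen after seeing the data) and by the methods' t-test after Benjamini-Hochberg (0% and 0%). With only the 2 phenotypes compared in the fit the counts were 0, 0 and 10 (0.417%, 0.203% and 26%). With no filter they were 4 and 28 (0.993% and 12.8% of all genes), with a foreground of 3 times background 5 and 1 (11.4% and 3.83%), and with sample weights 16, 10 and 14 (16.4%, 10.2% and 38.5%). With the weak array left out they were 17, 6 and 10 on the same genes (18.1%, 7.22% and 28.1%) and 26, 16 and 22 on the genes valid in 10 mice (15.7%, 9.12% and 21.1%). The second count was 8 with the Agilent processed signal (7.48%), 4 with normexp (5.17%), 1 with no variance trend (3.34%) and 1 with negative controls as background (2.23%, chosen after seeing the data), where the first was 10 (27%). The methods' t-test gave 7 and 4 unadjusted (13% and 16.8%) between MRL/lpr and Fn14ko and between Fn14ko and MRL/+, and the composite criterion 4 and 1 (4.69% and 7.01%). Leaving out 1 mouse gave 1 to 15, 0 to 16 and 0 to 0. The first count was 1 without MRL/+ replicate 2, 3 or 4 and the highest values came without MRL/lpr replicate 2.

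In the 10-mouse set the counts were 26, 16 and 22. Cy3 channels alone gave 8, 3 and 0 (4.98%, 2.15% and 0%), and Cy5 channels alone 51 and 49 in the comparisons with MRL/+ (48.6% and 57.2%). Array as a random block gave 41 and 25 (28.6% and 15.9%). Its negative fitted correlation of -0.26 narrows the standard errors, and it cannot measure array variation for the 1 MRL/lpr array. No dye term gave 15, 10 and 8 (8.54%, 4.46% and 8.16%). Negative controls as background gave 5 between MRL/lpr and Fn14ko and 3 between Fn14ko and MRL/+ (2.04% and 4.21%), and no filter 33, 26 and 14 (34.7%, 14.6% and 25.4%). Sample weights gave 28 between MRL/lpr and Fn14ko (19.4%). Between Fn14ko and MRL/+ the Agilent processed signal gave 14 (21%), the composite criterion 10 (7.83%) and leaving out both MRL/+ Cy5 channels 7 (3.98%). The methods' t-test after Benjamini-Hochberg gave 2, 0 and 1 (0.496%, 0% and 0.151%). Leaving out 1 mouse gave 10 to 32, 5 to 19 and 8 to 25, lowest without MRL/lpr replicate 2, MRL/lpr replicate 1, and Fn14ko or MRL/+ replicate 4. Without an MRL/lpr mouse that phenotype is 1 mouse, assumed to vary like the other groups.

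With a replicate block the counts were 7, 0 and 0 in 12 mice (5.7%, 2.02% and 0%) and 14, 10 and 12 in 10 mice (7.04%, 3.45% and 10.7%). Between Fn14ko and MRL/+ it ended the calls of *Kcnh3* in 10 mice and *Hcn2* in 12 mice and of no other named gene. In the comparisons with MRL/lpr, where same-numbered mice shared only a number, deviations correlated between -0.40 and 0.44.

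Of the named genes' values under the alternatives, 1013 kept their direction and side of the threshold, 269 lost the call, 2 gained one and 10 reversed. Without the filter, *Kcnab1* against Fn14ko was -0.22 and *Kcnmb4os2* in Fn14ko against MRL/+ 0.55; the latter was 0.12 with the processed signal. *Kcnmb4os2* in MRL/lpr against Fn14ko was -0.16 with sample weights, and -0.45 and -0.54 without the weak array. *Kcnh3* in Fn14ko against MRL/+ was -0.28 with the processed signal. With negative controls as background *Kcnk13* was 0.10 in MRL/lpr and 0.11 in Fn14ko against MRL/+, and *Kcnj6* 0.16. The causes were not tested.

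Scaling by the 75th percentile moved the median of all genes by -0.21 between Fn14ko and MRL/+ in 10 mice and by 0.17 between MRL/lpr and MRL/+ in 12 mice, where the share of calls that were lower went from 62.2% to 47.9%. Between MRL/lpr and Fn14ko the members' split in 10 mice was 13 lower and 3 higher, and 5 lower and 0 higher with negative controls as background; in 12 mice it was 1 and 1, and 2 and 0 with quantile normalization. Signal over background limits the dim members: of the 76 quantified in 10 mice, 38 were well above background in all of them.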

Other observations

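The remaining marker lists were counted in the 10-mouse set. Between MRL/lpr and MRL/+, none of 8 pan-neuronal markers passed, 3 of 8 interneuron markers were lower, 1 of 8 astrocyte markers was higher and 2 were lower, 1 of 8 oligodendrocyte markers was higher, and none of 6 endothelial markers passed. Of 4 thalamic markers 1 was higher and 1 lower. Erythroid markers were higher in MRL/lpr for 3 of 4 genes against MRL/+ and 4 of 4 against Fn14ko, with summed levels of 559 and 440 in MRL/lpr, 91.6 to 308 in Fn14ko and 115 to 171 in MRL/+. Between Fn14ko and MRL/+, striatal markers were higher in Fn14ko for 5 of 7 genes and cortical markers lower for 3 of 7.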
